A study of Mus musculus with 3 samples.

Results

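The genes described here are 3 receptors for fibroblast growth factor (FGF) and 7 feedback genes of the pathway they start. They were listed by name for their place in the pathway, with earlier results of these data known: *Fgfr1*, *Fgfr2*, *Fgfr3*, *Dusp6*, *Spry1*, *Spry2*, *Spry4*, *Etv4*, *Etv5* and *Spred1*, which are 10 of the 28953 genes listed over 3 single-cell RNA sequencing libraries of the mouse. The D10 culture came from embryonic stem cells that carry ScxGFP, a green fluorescent reporter of the tendon gene *Scx*. These cells formed embryoid bodies with the BMP receptor inhibitor LDN-193189 (500 nM), were taken towards paraxial mesoderm (PM) with LDN-193189 and the WNT activator CHIR (5 μM), and from D6 to D10 received TGFβ1 (10 ng/mL), the hedgehog agonist SAG (100 nM) and FGF2 (10 ng/mL). D6 PM is the stage just before that last medium, so it had not received FGF2, TGFβ1 or SAG. The E14.5 tail is tissue of ScxGFP embryos, taken without culture. The stem cell lines were derived and kept on mouse embryonic fibroblasts, 3 ScxGFP+ lines were used in the study, and the sources do not say which line gave these libraries. Each condition is 1 library, so no difference between conditions could be tested. Intervals of levels and ratios cover the counting of molecules only, and those of shares of cells the counting of cells only.

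FGFs bind receptor tyrosine kinases together with heparan sulfate, and the active receptor signals through the adaptor FRS2 and RAS to the kinase ERK. ERK activity raises the transcription of genes that restrain it. *Dusp6* encodes a phosphatase that removes the activating phosphates from ERK, while the Sprouty proteins (*Spry1*, *Spry2*, *Spry4*) and *Spred1* inhibit the step from receptor to RAS and RAF. *Etv4* and *Etv5* encode ETS transcription factors that are induced by FGF signalling in many embryonic tissues. In the somite, FGF signals from the early muscle layer act on the neighbouring sclerotome to induce tendon progenitors, and *Fgfr3* and *Fgfr2* are known for their roles in growing cartilage and bone.

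The files held 7821 cells and 53403944 unique molecular identifiers (UMIs, each a counted transcript molecule) for the D10 culture, 2052 cells and 31343741 UMIs for the tail, and 5954 cells and 51858825 UMIs for D6 PM. The median cell had 5622, 13512 and 8171 UMIs. The libraries shared 3 to 10 cell barcodes pair by pair. Cells carry cluster codes deposited by the authors, and 27 groups of code and library held at least 50 cells. Groups were named here only from markers listed for this work: the tendon-like code held 2964 culture cells and 685 tail cells, the proliferating tendon-like code 1353 and 186, and the cartilage-like code 855 and 241. In the tendon-like cells *Scx* stood at 2410 CPM in the culture and 1472 CPM in the tail, CPM being the UMIs of a gene per 1000000 UMIs of the group. The tendon marker *Tnmd* stood at 23.6 CPM and 93.0 CPM there, and it had no UMI in the cartilage-like cells of the culture, which carried *Scx* (1852 CPM) together with *Col2a1* (2271 CPM). The 1088 pluripotent-like cells of the culture had *Pou5f1* at 545 CPM, and the 700 somite-like cells of D6 PM had *Meox1* at 187 CPM. These names rest on markers and do not follow the study's: by number of cells the pluripotent-like code is the cluster the study's text names fibrocartilage, whereas *Scx* and *Col2a1* stood together in the cartilage-like code. The 5 erythroid markers summed to between 0.654 and 4.04 CPM in these 3 groups of the culture and to between 1410 and 4226 CPM in those of the tail, where all 5 had UMIs. The 6 pluripotent markers summed to between 29.2 and 38.6 CPM in the culture and 4.54 and 6.35 CPM in the tail, and the median tendon-like cell had 4918.5 and 13463 UMIs. The part of these differences in the results was not tested.

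Promoter sequences of RefSeq (mouse build GRCm38.p6) were matched for 7 of the 10 genes, with 9 start sites. *Fgfr1*, *Spry4* and *Etv4* were not matched. The windows of *Dusp6*, *Etv5* and *Spry2* are shown because the contrasts of these genes recur in several groups below: *Dusp6* was high in tendon-like cells of the culture, *Etv5* in pluripotent-like cells and *Spry2* in the tendon-like, proliferating and cartilage-like cells of the tail relative to the culture. Each run is the 250 bases before the start site, written 5′ to 3′ on the gene's strand, and capitals mark the letters TGAATG or their reverse complement CATTCA. These letters are the core of the site known to be bound by CIC, a repressor that ERK inactivates and that represses *Etv4* and *Etv5*.
Dusp6, chr10:99262981-99263230, plus strand: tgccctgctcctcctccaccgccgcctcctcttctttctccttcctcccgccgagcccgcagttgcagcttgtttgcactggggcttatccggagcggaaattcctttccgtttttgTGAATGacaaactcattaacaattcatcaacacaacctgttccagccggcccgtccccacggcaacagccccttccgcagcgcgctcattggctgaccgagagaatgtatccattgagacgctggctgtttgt
Etv5, chr16:22438369-22438618, minus strand: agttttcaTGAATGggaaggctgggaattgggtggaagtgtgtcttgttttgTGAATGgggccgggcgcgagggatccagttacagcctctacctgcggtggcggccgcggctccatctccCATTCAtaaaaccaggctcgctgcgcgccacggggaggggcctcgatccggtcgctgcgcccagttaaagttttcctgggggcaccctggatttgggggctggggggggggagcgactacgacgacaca
Spry2, chr14:105896820-105897069, minus strand: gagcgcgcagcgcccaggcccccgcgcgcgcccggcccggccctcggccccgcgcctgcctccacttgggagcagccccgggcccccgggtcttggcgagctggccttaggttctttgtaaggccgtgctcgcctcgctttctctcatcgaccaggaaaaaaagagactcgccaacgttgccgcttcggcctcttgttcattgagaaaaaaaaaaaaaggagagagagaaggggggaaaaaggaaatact
The *Dusp6* window held 1 match, 128 bases before the start. The *Etv5* window held 3 matches, 237, 193 and 124 bases before the start. This *Etv5* start lies inside a longer transcript, in an intron, and the window of the other *Etv5* start held no match. The *Spry2* window held none, nor did the windows of *Fgfr2*, *Fgfr3*, *Spry1* and *Spred1*. Over all 32851 promoter windows of the same length, 10.9% held TGAATG on either strand. The letters CCGGAA of an ETS site and TGACTCA of an AP-1 site were searched in the same way, were found in 12.03% and 4.46% of all windows and were in none of the 9. The letters were chosen after the sequences had been seen, and a match describes the sequence only.

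Across the 27 groups, each gene had its own order of levels. *Fgfr1*, the receptor typical of mesenchyme, ranged from 0.942 CPM in erythroid-like cells of the tail to 383 CPM (95% interval 327 to 445) in culture code 9, which is led by *Lyz2* and *Mmp3*. That code also carried the collagen gene *Col1a1* at 2166 CPM, beside 2741 CPM in tendon-like cells of the culture, with *Scx* at 178 CPM. *Fgfr2* was highest in skin-like cells of the tail, at 264 CPM (240 to 289). *Fgfr3* was highest in cartilage-like cells of the tail, at 67.4 CPM (58.9 to 76.9), and had no UMI in 3 groups and 3 or fewer UMIs in 12. *Dusp6* was highest in endothelial-like cells of the tail, at 165 CPM (145 to 188), followed by tendon-like cells of the culture at 146 CPM (140 to 152). *Spry1* was highest in the tendon-like cells of the culture, at 90.6 CPM (86.1 to 95.3). *Spry2* was highest in tail code 9, led by *Cpa3* and *C1qb*, at 79.4 CPM (68.6 to 91.4), and *Spry4* in endothelial-like cells of the tail at 34.6 CPM (25.6 to 45.7). Tail code 9 likewise carried *Col1a1*, at 2870 CPM beside 3185 CPM in tendon-like cells of the tail, with *Scx* at 90.1 CPM. *Etv5* was highest in pluripotent-like cells of D6 PM, at 90.2 CPM (85.0 to 95.7). *Etv4* reached 57.2 CPM in culture code 7, a code of few UMIs per cell in which this level rests on 27 molecules (37.7 to 83.2). *Spred1* had no UMI in erythroid-like cells of the tail and lay between 22.7 CPM and 124 CPM (113 to 137) in the other groups, the highest being cartilage-like cells of the tail.

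Neighbours in these orders were mostly not separated by counting error. Of the 26 pairs of neighbouring groups for each gene, the interval of their ratio excluded 1 in 7 pairs for *Fgfr1*, in 3 each for *Fgfr2*, *Fgfr3* and *Etv5*, in 2 each for *Dusp6*, *Spry2* and *Spry4*, in 1 each for *Spry1* and *Spred1* and in 0 for *Etv4*. The top of the *Dusp6* order, endothelial-like tail cells and tendon-like culture cells, is such a pair that was not separated. For *Fgfr1*, culture code 9 and the cartilage-like cells of the culture (368 CPM) were not separated, and the latter stood apart from the group after them.

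**Figure D1:**
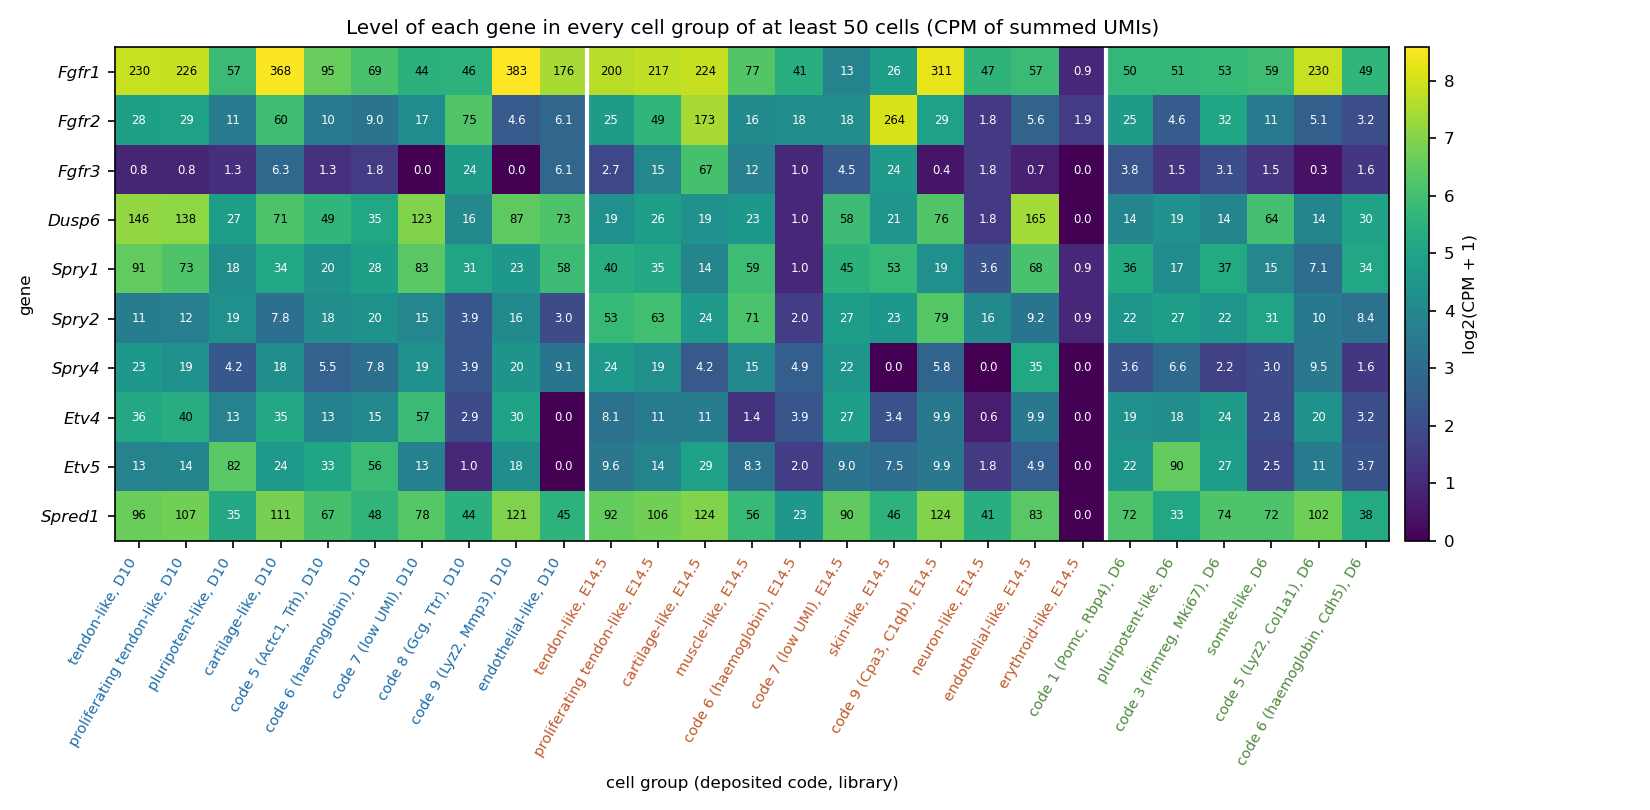
Level of the 10 genes (rows) in the 27 groups of at least 50 cells (columns, ordered by library and coloured by it in the labels), printed in CPM of summed UMIs and coloured on a log2(CPM + 1) scale. *Dusp6* stands at 146 and 138 CPM in tendon-like and proliferating tendon-like cells of the culture and at 19 and 26 CPM in those of the tail, while *Etv5* is brightest in the pluripotent-like columns.

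The first comparison set tendon-like cells of the culture, which grew in FGF2, TGFβ1 and SAG, beside tendon-like cells of the embryo under the same deposited code. Between culture and tail, here and in the cell groups below, medium, growth in culture, stage and library differ together and cannot be told apart. The receptor *Fgfr1* stood at 230.2 CPM (223.0 to 237.6) in the culture and 199.5 CPM (190.9 to 208.4) in the tail, a ratio of 1.15 (1.09 to 1.22). *Fgfr2* stood at 27.7 and 25.1 CPM, a ratio of 1.10 (0.944 to 1.29). *Fgfr3* was barely detected in either, with 14 UMIs in culture cells and 27 in tail cells. The intervals of the *Fgfr1* and *Fgfr2* ratios thus lay well inside 2-fold.

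Several feedback genes lay outside it. *Dusp6* stood at 146 CPM in the culture and 18.8 CPM (16.2 to 21.6) in the tail, so it was 7.79-fold higher in the culture (6.72 to 9.08). *Etv4* stood at 35.6 and 8.10 CPM, 4.399-fold higher (3.49 to 5.61). *Spry1* stood at 90.6 and 39.5 CPM, 2.29-fold higher (2.05 to 2.57). *Spry2* went the other way, at 11.3 CPM (9.77 to 13.1) in the culture and 53.2 CPM (48.8 to 57.9) in the tail, so it was 4.70-fold higher in the tail (3.97 to 5.58). The other genes lay within 2-fold: *Spry4* at 22.7 and 23.8 CPM had a ratio of culture to tail of 0.955 (0.810 to 1.13), *Etv5* at 13.2 and 9.58 CPM one of 1.38 (1.08 to 1.77) and *Spred1* at 96.4 and 92.4 CPM one of 1.04 (0.961 to 1.13). The 3 Sprouty genes therefore differed in direction, with *Spry1* higher, *Spry4* near 1 and *Spry2* lower in the culture.

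Counted with a 2-fold limit and a minimum of 50 UMIs in the groups together, 9 of the 10 genes could be read, *Fgfr3* falling below that count. Past that limit, 3 stood higher in culture and 1 lower, where 8.74% of the 13553 genes read the same way were higher, 17.0% lower and 25.7% either. The median log2 ratio was 0.21 over the 9 genes and -0.21 over all genes, so levels of all genes leaned to the tail. Dividing by that median left the same 4 genes past the limit. *Scx* was detected in 92.9% of the tendon-like cells of the culture and in 52.6% of those of the tail. With cells that have an *Scx* UMI alone, *Dusp6* was 7.85-fold higher in the culture and *Spry2* 4.63-fold higher in the tail.

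In proliferating tendon-like cells *Dusp6* stood at 138 and 26.3 CPM, 5.24-fold higher in the culture (4.33 to 6.39). *Etv4* was 3.77-fold higher (2.78 to 5.23) and *Spry1* 2.11-fold higher (1.77 to 2.53). *Spry2* stood at 11.8 and 62.6 CPM, 5.32-fold higher in the tail (4.29 to 6.62). *Fgfr3* stood at 0.840 CPM, from 9 UMIs, against 14.6 CPM in the tail, so it was 17.3-fold higher in the tail (8.56 to 39.6). *Fgfr2* was at 29.3 and 49.4 CPM, a ratio of 0.593 (0.497 to 0.709). The ratios of *Fgfr1*, *Spry4*, *Etv5* and *Spred1* lay between 1.01 and 1.04. All 10 genes could be read here, and 5 passed the 2-fold limit, 3 higher and 2 lower, where 7.72% and 11.5% of 11750 genes did so (19.2% in either direction). *Etv4* reached the minimum of 50 UMIs through the culture alone and *Fgfr3* through its 63 UMIs of the tail. With at least 200 UMIs asked for *Fgfr3* was not read and 4 genes were past 2-fold, where 13.2% of 8438 genes were. The median log2 ratio over all genes was -0.14.

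In cartilage-like cells the receptors parted as well. *Fgfr2*, at 59.8 CPM (51.8 to 68.8) in the culture and 173 CPM (159 to 188) in the tail, was 2.90-fold higher in the tail (2.46 to 3.42). *Fgfr3*, a receptor that restrains the growth of cartilage, stood at 6.31 CPM (3.91 to 9.65) and 67.4 CPM, 10.7-fold higher in the tail (6.82 to 17.6). *Fgfr1* stood at 368 and 224 CPM, a ratio of 1.64 (1.495 to 1.80). *Dusp6* was 3.74-fold higher in the culture (2.82 to 5.02), *Etv4* 3.06-fold (2.11 to 4.54) and *Spry1* 2.44-fold (1.72 to 3.52). *Spry4*, with 61 and 14 UMIs, was 4.33-fold higher in the culture (2.40 to 8.39), while *Spry2*, with 26 and 79 UMIs, was 3.06-fold higher in the tail (1.94 to 4.96). *Etv5* and *Spred1* were at ratios of 0.810 (0.594 to 1.10) and 0.895 (0.776 to 1.03). Of the 10 genes, 4 were past 2-fold higher and 3 past 2-fold lower, where 6.94% and 10.8% of 10150 genes were (17.8% in either direction). *Fgfr3*, *Spry1*, *Spry2*, *Spry4* and *Etv4* reached the minimum of 50 UMIs through the higher group alone. The median log2 ratio over all genes was -0.13. The Sprouty and *Etv4* values here rest on few molecules: with at least 200 UMIs asked for, 3 genes remained past 2-fold, *Dusp6*, *Fgfr2* and *Fgfr3*, where 12.1% of 5879 genes were.

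Across these 3 cell groups *Dusp6*, *Spry1* and *Etv4* were past 2-fold higher in the culture each time and *Spry2* past 2-fold lower each time. In cartilage-like cells *Spry1*, *Etv4* and *Spry2* reached the minimum of UMIs through the higher group alone, as did *Etv4* in proliferating tendon-like cells. With at least 200 UMIs asked for, only *Dusp6* of these genes remained past 2-fold in cartilage-like cells. The 3 comparisons share their libraries and so are not separate evidence.

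**Figure D2:**
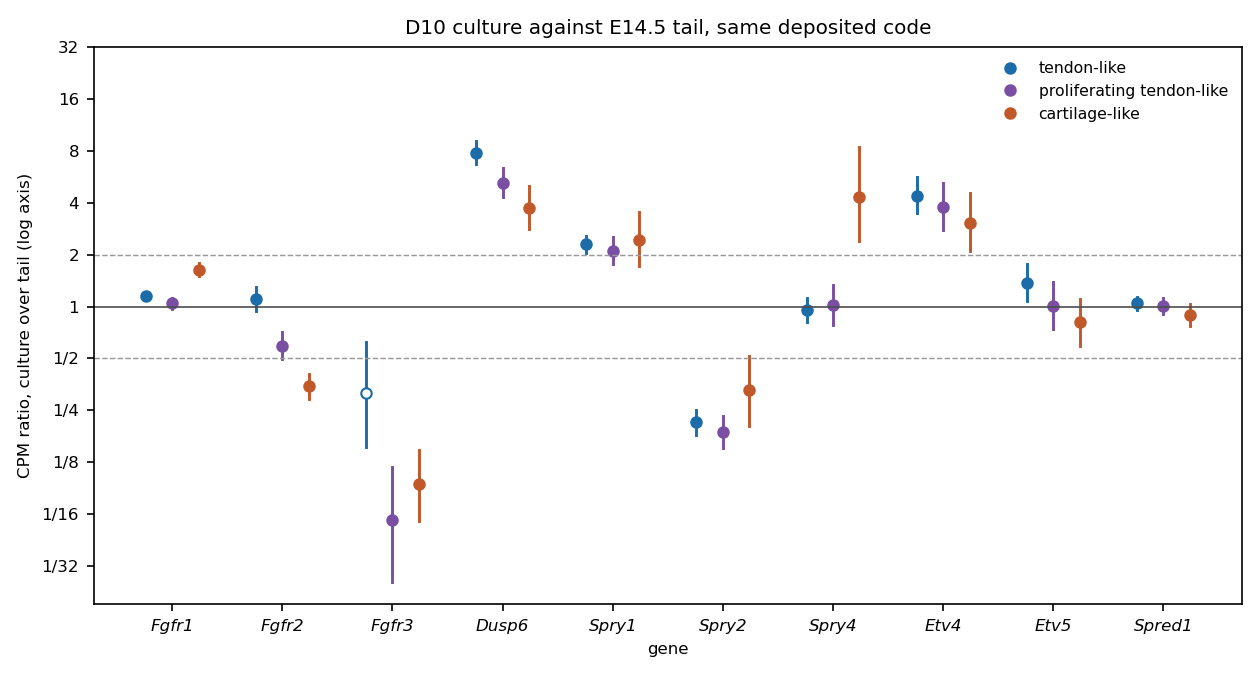
Ratio of CPM in the D10 culture to CPM in the E14.5 tail (log axis) for the 10 genes in tendon-like, proliferating tendon-like and cartilage-like cells; bars are 95% counting intervals, the open point had fewer than 50 UMIs, and dashed lines mark 2-fold. The points of *Dusp6*, *Spry1* and *Etv4* sit above the upper line and those of *Spry2* below the lower line in all 3 cell groups, while *Fgfr3* is lower in the culture by 10.7-fold in cartilage-like cells. The bars of *Spry1* in proliferating and cartilage-like cells and of *Spry2* in cartilage-like cells reach inside 2-fold. In cartilage-like cells *Spry1*, *Etv4* and *Spry2* reached 50 UMIs through the higher group alone, as did *Etv4* in proliferating cells.

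The same contrast was seen in the share of cells in which a gene was counted. After each cell was thinned to 3000 UMIs, *Dusp6* was detected in 31.7% of 2595 tendon-like cells of the culture (29.9 to 33.5) and in 5.31% of 678 of the tail (3.75 to 7.28). *Spry2* was detected in 2.74% (2.14 to 3.44) and 13.4% (10.9 to 16.2). Shallower cells were left out, 369 in the culture and 7 in the tail, and without thinning the shares were 42.9% and 18.2% for *Dusp6* and 6.01% and 42.5% for *Spry2*. Erythroid-like cells of the tail, which should lack these genes, had *Dusp6* and *Spry2* in 0 of 125 thinned cells, which by 3 counts allows a share of up to 2.40%, at a median depth of 8407 UMIs beside 13497 in the tendon-like cells. In the culture the pluripotent-like cells had *Dusp6* in 7.03% and code 8, led by *Gcg* and *Ttr*, in 7.43%.

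Within the tendon-like cells of the culture, cells with a *Dusp6* UMI more often had one of *Spry1*, *Spry4*, *Etv4* or *Spred1*. Of the 823 cells with *Dusp6*, 26.0% had *Spry1* (23.0 to 29.1), against 17.6% of the 1772 cells without (15.8 to 19.4). *Spry4* was found in 8.99% and 4.51%, *Etv4* in 13.2% and 7.96%, and *Spred1* in 29.2% and 22.5%. The intervals of each of these pairs do not overlap. How often this holds over all genes was not counted, so the pairs are described only. *Spry2*, at 3.52% and 2.37%, and *Etv5*, at 5.10% and 3.16%, had intervals that overlap. *Fgfr1* was found in 50.3% and 45.6%, and *Fgfr2* was the less frequent beside *Dusp6*, at 5.95% (4.44 to 7.80) and 8.97% (7.68 to 10.4), with intervals that just overlap. *Fgfr3* had a UMI in 0 and 5 cells. In proliferating tendon-like cells *Spry1* was found in 87 of 396 cells with *Dusp6* and 137 of 945 without, *Spry4* in 7.83% and 3.81% and *Etv4* in 14.6% and 8.57%, while *Spred1*, at 28.3% (23.9 to 33.0) and 23.4% (20.7 to 26.2), had intervals that overlap. In pluripotent-like cells, where 76 cells had *Dusp6*, *Spry1* was found in 5.26% and 5.87% and *Etv4* in 1.32% and 4.08%, and no pair of intervals there was apart. Nor was any in cartilage-like cells, where *Spry1* was found in 10.6% of 113 cells with *Dusp6* and 9.47% of 528 without, *Etv4* in 9.73% and 9.66% and *Spry4* in 9.73% and 4.55%. All cells were thinned to the same depth, and the cells of 1 library are not replicates.

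**Figure D3:**
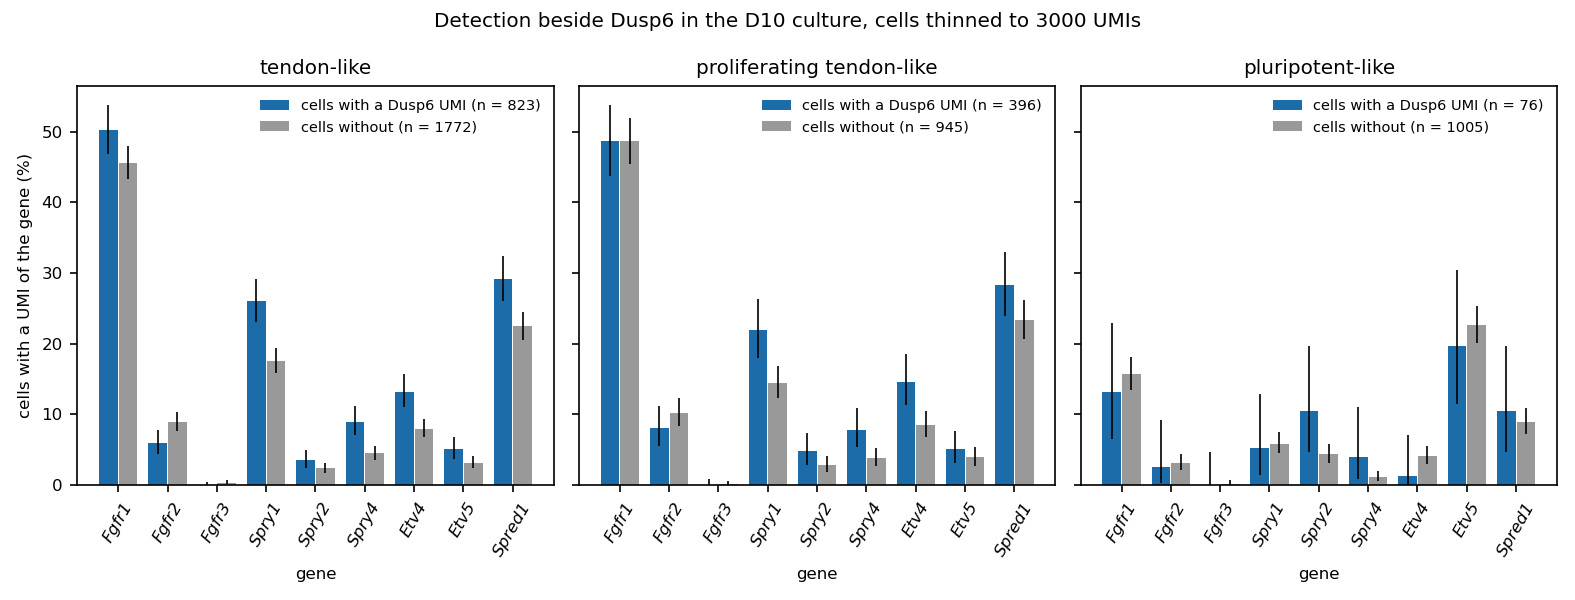
Percent of cells with a UMI of each of the other 9 genes among cells with and without a *Dusp6* UMI, in 3 groups of the D10 culture, with all cells thinned to 3000 UMIs; bars are shares and lines 95% Clopper-Pearson intervals. In tendon-like cells *Spry1* is at 26.0% and 17.6%, and in pluripotent-like cells the intervals of every gene overlap.

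The study set tendon beside fibrocartilage fates, and the 10 genes were compared between cartilage-like and tendon-like cells within each library. In the tail *Fgfr3* was 25.3-fold higher in cartilage-like cells (16.9 to 39.2), with 223 and 27 UMIs, and 11.2-fold higher when cells with an *Scx* UMI alone were used. *Fgfr2* was 6.91-fold higher (5.95 to 8.04). In the culture *Fgfr2* was 2.16-fold higher in cartilage-like cells (1.82 to 2.56), and *Fgfr3* had 21 and 14 UMIs, at 6.31 and 0.844 CPM, too few for the limit of 50. *Fgfr1* was 1.60-fold higher in cartilage-like cells of the culture (1.497 to 1.70) and at a ratio of 1.12 (1.03 to 1.22) in the tail. Of the receptors known from cartilage, *Fgfr2* thus stood higher in the cartilage-like code of each library, and *Fgfr3* could be read in the tail alone.

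*Spry1* was lower in cartilage-like cells of each library, at 34.0 against 90.6 CPM at D10 and 13.9 against 39.5 CPM in the tail. The tendon-like cells were 2.67-fold higher (2.20 to 3.26) and 2.84-fold higher (2.09 to 3.94). *Dusp6* was 2.05-fold higher in tendon-like cells of the culture (1.79 to 2.35), whereas the cartilage-like to tendon-like ratio of the tail was 1.02 (0.751 to 1.36). *Spry4* was 5.62-fold higher in tendon-like cells of the tail (3.29 to 10.4), at 23.8 against 4.23 CPM, while in the culture the ratio was 0.807 (0.605 to 1.06). *Spry2* was 2.23-fold higher in tendon-like cells of the tail (1.76 to 2.86), with a ratio of 0.690 (0.439 to 1.04) in the culture. *Etv5* was higher in cartilage-like cells, 3.06-fold in the tail (2.29 to 4.10) and 1.80-fold in the culture (1.37 to 2.34). *Etv4* was at 0.988 (0.803 to 1.21) in the culture and 1.42 (0.939 to 2.11) in the tail, and *Spred1* at 1.15 (1.03 to 1.29) and 1.34 (1.19 to 1.51).

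In the culture 1 of the 9 genes that could be read was past 2-fold higher in cartilage-like cells and 2 lower, where 2.51% and 6.34% of 12126 genes were (8.85% in either direction). In the tail 3 of 10 were higher and 3 lower, where 3.52% and 8.56% of 12300 genes were (12.1% in either direction), and *Fgfr3*, *Spry1* and *Spry4* among the 6 reached the minimum of 50 UMIs through the higher group alone. The codes were made from the expression of these same cells, so these ratios describe the groups. *Dusp6* and *Fgfr2* lie close to the limit in the culture: a mean of per-cell CPM left out *Dusp6*, and cells of at least 3000 UMIs left out *Fgfr2*.

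**Figure D4:**
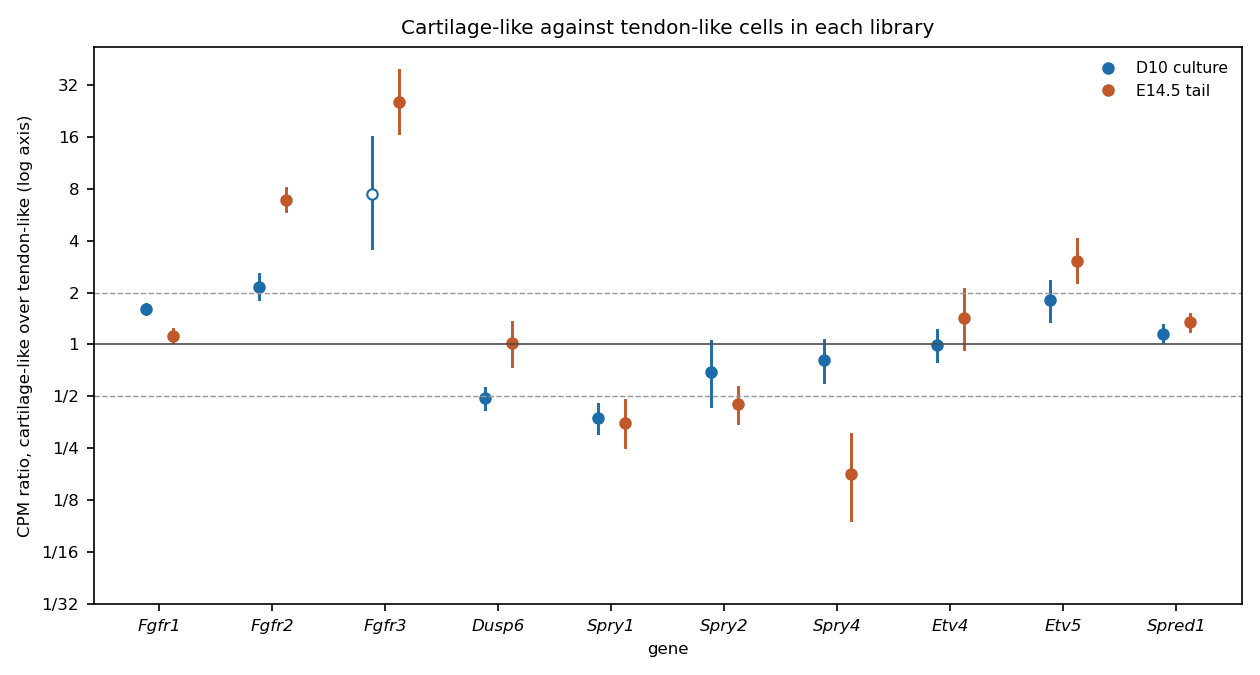
Ratio of CPM in cartilage-like to CPM in tendon-like cells (log axis) for the 10 genes within the D10 culture and within the E14.5 tail; bars are 95% counting intervals, the open point had fewer than 50 UMIs, and dashed lines mark 2-fold. *Fgfr2* is above 1 and *Spry1* below 1 in each library, *Fgfr3* is at 25.3 in the tail (11.2 in cells with an *Scx* UMI, not drawn) with its culture point open, while *Dusp6* is at 0.488 in the culture and 1.02 in the tail.

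Pluripotent-like and tendon-like cells of the culture came from 1 library and the same medium with FGF2. *Etv5* stood at 81.8 CPM (76.7 to 87.1) in pluripotent-like cells and 13.2 CPM (11.5 to 15.1) in tendon-like cells, 6.19-fold higher (5.34 to 7.21). *Etv4*, its close relative, stood at 13.1 and 35.6 CPM, 2.71-fold higher in tendon-like cells (2.27 to 3.26). *Dusp6* was 5.48-fold higher in tendon-like cells (4.87 to 6.18), *Spry4* 5.44-fold (4.03 to 7.48) and *Spry1* 5.01-fold (4.34 to 5.81). *Fgfr1* was 4.06-fold higher (3.74 to 4.41), *Spred1* 2.74-fold (2.46 to 3.06) and *Fgfr2* 2.52-fold (2.06 to 3.08). *Spry2* was the other gene that leaned to pluripotent-like cells, at 18.9 and 11.3 CPM, a ratio of 1.67 (1.37 to 2.04). *Fgfr3* had 15 and 14 UMIs and could not be read.

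Of 9 genes, 1 was past 2-fold higher in pluripotent-like cells and 7 lower, where 22.9% and 24.1% of 13643 genes were (47.0% in either direction). *Spry4*, with 49 and 377 UMIs, reached the minimum through the tendon-like cells alone. The median log2 ratio was -1.46 over the 9 genes and 0.02 over all genes. Of 7 tendon markers, *Scx* in pluripotent-like cells stood at 2.93% of its tendon-like level (2.73 to 3.14), and the others lay between 0.724% for *Tnmd* and 5.23% for *Mkx* (3.50 to 7.52). Pluripotent-like cells of D6 PM had *Scx* at 20.8 CPM, against 70.7 CPM in the culture, and the source of these UMIs was not tested. *Dusp6* stood at 18.3% (16.2 to 20.5), *Spry1* at 19.95% and *Spry4* at 18.4%. In the other direction *Etv5* in tendon-like cells stood at 16.1% of its pluripotent-like level (13.9 to 18.7), where *Fgf4*, an FGF of pluripotent cells, was at 0.298%, *Pou5f1* at 1.21% and *Esrrb* at 2.04%. After thinning, *Etv5* was detected in 22.5% of pluripotent-like cells of the culture, in 3.78% of tendon-like cells and in 0 of 148 cells of code 8, which by 3 counts allows up to 2.03%, at median depths of 10406, 5200 and 6304 UMIs. Without thinning the shares were 48.9%, 6.51% and 0.645%.

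D6 PM and the culture stand before and after the medium with FGF2, TGFβ1 and SAG, so time, medium and cell type differ together and cannot be told apart. Somite-like cells of D6 PM had *Fgfr1* at 58.9 CPM (53.0 to 65.3), and the tendon-like cells of the culture were 3.91-fold higher (3.51 to 4.37). *Fgfr2* stood at 11.02 CPM and was 2.51-fold higher in the culture (1.94 to 3.29). *Dusp6* was already at 63.5 CPM (57.3 to 70.2) in somite-like cells, above the 14.1 to 30.1 CPM of the other 5 groups of D6 PM, and was 2.30-fold higher in tendon-like cells of the culture (2.07 to 2.57). *Spry1* stood at 14.6 CPM and was 6.19-fold higher (4.99 to 7.75).

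*Etv4*, *Spry4* and *Etv5* were close to the floor of detection in somite-like cells, with 17, 18 and 15 UMIs in 700 cells. *Etv4* was 12.7-fold higher in tendon-like cells (7.89 to 22.01) and 34.0-fold higher without doublets. *Spry4* was 7.67-fold higher (4.79 to 13.1), and *Etv5* 5.35-fold (3.17 to 9.72), or 2.62-fold as a mean of per-cell CPM. *Spry2* stood at 31.4 CPM (27.1 to 36.2) in somite-like cells and was 2.77-fold higher there than in tendon-like cells of the culture (2.26 to 3.41). *Spred1* was at 72.2 and 96.4 CPM, a ratio of 1.33 (1.20 to 1.49). *Fgfr3* had 9 and 14 UMIs and could not be read. Of 9 genes, 7 were past 2-fold higher in the culture and 1 lower, where 13.2% and 12.4% of 12728 genes were (25.6% in either direction). Among the 7, *Etv4*, *Spry4* and *Etv5* reached the minimum of 50 UMIs through the culture alone. The median log2 ratio was 1.97 over the 9 genes and -0.14 over all genes. Set beside the tail, *Spry2* stood at 31.4 CPM in somite-like cells, 11.3 CPM in the culture and 53.2 CPM in the tail, the culture being lowest, while *Dusp6* stood at 63.5, 146 and 18.8 CPM, the culture being highest.

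**Figure D5:**
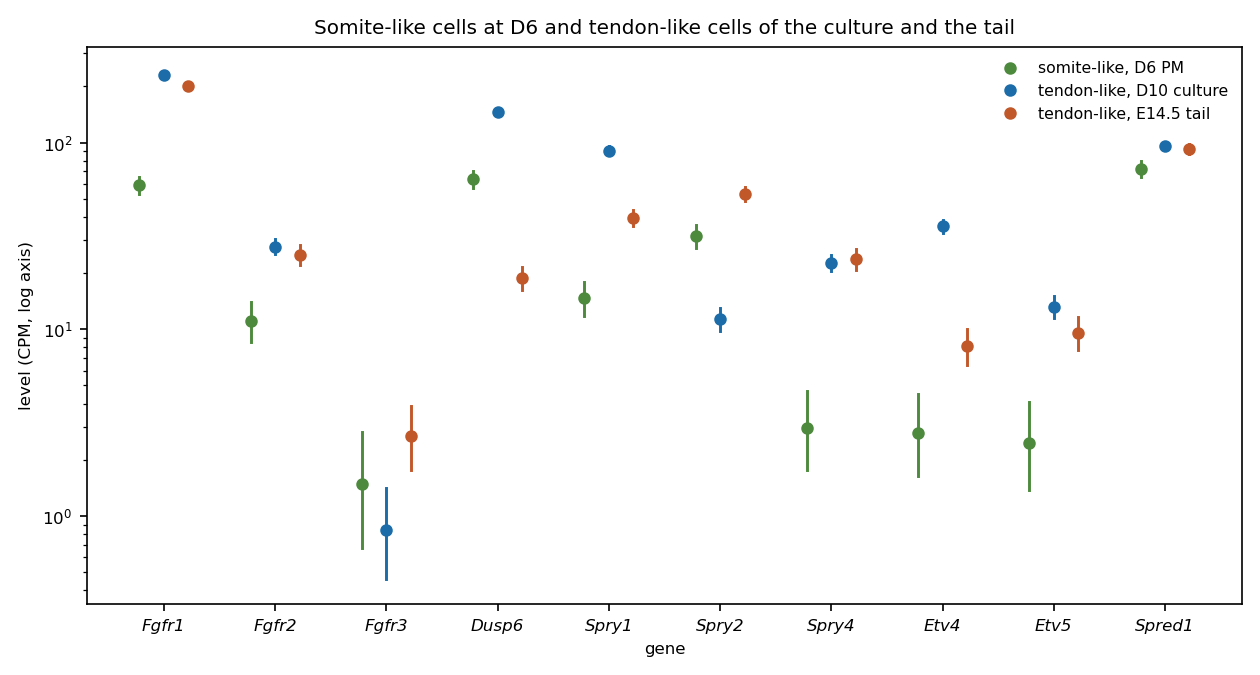
Level in CPM (log axis) of the 10 genes in somite-like cells of D6 PM and in tendon-like cells of the D10 culture and the E14.5 tail; bars are 95% Poisson intervals. *Spry4*, *Etv4* and *Etv5* are below 3 CPM in somite-like cells, *Dusp6* is highest in the culture at 146 CPM, and *Spry2* is lowest there at 11.3 CPM.

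Pluripotent-like cells were present in both libraries and gave a comparison with a like marker class. *Etv5* stood at 90.2 CPM at D6 and 81.8 CPM at D10, a ratio of 0.906 (0.830 to 0.989). *Dusp6* stood at 19.5 and 26.7 CPM, a ratio of 1.37 (1.15 to 1.63). *Spry2* and *Etv4* stood at ratios of 0.707 (0.594 to 0.841) and 0.734 (0.593 to 0.906), and *Spry4* at 0.636 (0.436 to 0.919). *Fgfr1*, *Spry1* and *Spred1* had intervals that include 1. *Fgfr2* alone passed 2-fold, at 4.60 CPM at D6 and 2.39-fold higher at D10 (1.74 to 3.34). Thus 1 of 9 genes was higher and 0 lower, where 6.86% and 4.40% of 12795 genes were (11.3% in either direction), with *Fgfr3* at 18 and 15 UMIs not read. The codes of D6 PM and of the culture came from separate clusterings.

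The rest of the pathway was described from lists fixed for this work. The 20 adaptors and kinases from *Frs2* to the ERK genes were all read in tendon-like cells, and 1, *Frs3*, was past 2-fold, lower in the culture. Their median log2 ratio was -0.05, beside -0.21 over all genes. Of 11 other feedback genes that could be read, 4 were higher in the culture and 0 lower, with a median of 0.47, where 8.74% of all genes were higher and 17.0% lower. Among them *Errfi1*, an inhibitor of the EGF receptor, stood at 62.7 and 30.8 CPM, 2.04-fold higher (1.79 to 2.32). The other 3, *Dusp4*, *Dusp5* and *Dusp9*, encode phosphatases of the same family as *Dusp6* and lay under 20 CPM. In proliferating tendon-like cells 4 of 11 other feedback genes were higher and 1 lower, with a median of 0.54, where 7.72% and 11.5% of all genes were. Cartilage-like cells did not show this lean: 0 of 9 were higher and 1 lower, with a median of -0.03, where 6.94% and 10.8% of all genes were.

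Of 9 genes known to answer ERK activity, most of them immediate early genes, 2 were higher in tendon-like cells of the culture, *Ier3* and the low *Egr2*, and 4 lower, against the same 8.74% and 17.0%. *Ier3* stood at 296 and 34.6 CPM, 8.57-fold higher (7.69 to 9.58). *Fos* stood at 27.3 and 889 CPM, *Egr1* at 71.2 and 436 CPM and *Junb* at 43.8 and 135 CPM, each lower in the culture, as was *Ccnd1*, a cyclin gene that answers more slowly, at 104 and 210 CPM. *Fos*, *Egr1* and *Junb* are known to be induced when tissue is dissociated, and the part of dissociation in these values and in those of the feedback genes was not tested. In cartilage-like cells the list had 1 higher and 5 lower of 8, where 6.94% and 10.8% of all genes were. In proliferating tendon-like cells it had 1 higher and 4 lower of 8, where 7.72% and 11.5% of all genes were.

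Of the FGF genes themselves, 10 of 22 could be read in tendon-like cells, with 3 higher in the culture (*Fgf11*, *Fgf18*, *Fgf21*) and 3 lower (*Fgf7*, *Fgf10*, *Fgf12*), where 8.74% and 17.0% of all genes were. *Fgf18*, which acts on cartilage, stood at 153 and 62.0 CPM, 2.46-fold higher (2.25 to 2.69), and *Fgf21*, a hormone-like FGF, at 24.4 and 1.28 CPM. *Fgf7* and *Fgf10*, whose products bind the epithelial form of *Fgfr2*, were at 0.542 and 1.15 CPM in the culture and 21.1 and 21.2 CPM in the tail. *Fgf7* and *Fgf10* reached the minimum of UMIs through the tail alone and *Fgf21* through the culture alone. *Fgf18* was at 1.32 CPM in somite-like cells of D6 PM. *Fgfrl1*, a receptor without a kinase domain, stood at 106 and 39.7 CPM, 2.67-fold higher in the culture (2.39 to 2.98), and at 14.48 CPM in somite-like cells. It was also higher in cartilage-like than in tendon-like cells, 2.52-fold in the culture and 4.61-fold in the tail. Of the 11 co-receptors and other receptors read, 2 were higher in the culture, *Fgfrl1* and the syndecan gene *Sdc2* (224 and 76.6 CPM). The 2 lower were the glypican gene *Gpc4* (16.3 and 66.7 CPM) and *Flrt1* (0.844 and 30.2 CPM). *Flrt1* reached the minimum of UMIs through the tail alone. The lower share was near the 17.0% of all genes.

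In pluripotent-like cells of the culture the ligand *Fgf4* stood at 222 CPM and in tendon-like cells at 0.663 CPM, from 11 UMIs. It was at 91.5 CPM in pluripotent-like cells of D6 PM. *Dusp9*, an ERK phosphatase, stood at 62.6 and 11.4 CPM, and the syndecan gene *Sdc4* at 266 and 32.6 CPM, so that both were on the side of *Etv5*. *Il17rd*, which encodes the FGF antagonist Sef, was on the other side at 36.2 and 94.6 CPM, as was *Etv1*, the remaining gene of the *Etv4* and *Etv5* subfamily, at 10.7 and 37.7 CPM. *Dusp9* was the only 1 of 11 other feedback genes past 2-fold higher in pluripotent-like cells, with 5 lower. *Sdc4* was the only 1 of 10 co-receptors and other receptors, with 8 lower. Of 11 FGF genes 3 were higher and 6 lower. Of 9 genes known to answer ERK activity 0 were higher and 6 lower. Over all genes 22.9% were higher and 24.1% lower. Between somite-like cells and tendon-like cells of the culture *Il17rd* was 4.67-fold higher in the latter (3.89 to 5.66) and *Etv1* 2.98-fold (2.35 to 3.83).

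Over the 27 groups the feedback genes did not follow 1 pattern. On log2(CPM + 10), Pearson's r was 0.72 between *Dusp6* and *Spry1* and 0.68 between *Dusp6* and *Spry4*, but 0.09 between *Dusp6* and *Spry2* and 0.09 between *Dusp6* and *Etv5*. *Etv4* and *Etv5* had an r of 0.52 (0.74 with a pseudocount of 1, *Etv5* then being among the 3 genes most like *Etv4*), *Fgfr2* and *Fgfr3* 0.79 and *Fgfr1* and *Spred1* 0.75. Among 12544 genes with at least 500 UMIs, those most like *Fgfr3* were *Sox6* (0.83), *2610035D17Rik* (0.80) and *Fgfr2* (0.79). *Fgfr2* was most like *Erbb2* (0.85), *Sox6* (0.84) and *Fras1* (0.84), and *Fgfr1* was most like *Sulf2*, *Arsb* and *Slc39a13* (0.88 each). *Dusp6* was most like *Eva1b* (0.80), *Etv5* like *Blnk* (0.86) and *Ddx4* (0.85), and *Spred1* like *Mgat2* (0.92). *Spry1* came closest to *Myl12a* (0.81), *Spry2* to *Bckdhb* (0.81), *Spry4* to *Ldlrad4* (0.82) and *Etv4* to *1810037I17Rik* (0.73). Groups of 1 library share depth and handling, so these values are descriptions, and they depend on the pseudocount. With a pseudocount of 1 in place of 10, all 3 closest genes stayed among the 3 for *Spred1*, 2 for *Fgfr1* and *Fgfr3*, 1 for *Fgfr2*, *Spry1*, *Spry2*, *Spry4* and *Etv5*, and 0 for *Dusp6* and *Etv4*.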

How the data were processed

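Single-cell libraries of D6 PM, the D10 culture and the tail at E14.5 were prepared by the authors on a droplet platform. The deposited values are UMI counts per gene and cell, with a cluster code per cell. The authors made these counts with Cell Ranger, ignoring multi-mapping reads, and used Seurat 3.0. Cells above 7.5% mitochondrial transcripts, and the lowest and highest 2% by transcripts, the latter as likely doublets, were removed before deposit. Culture and tail were clustered together with the tail as reference, and D6 PM separately. The genome build is not given in the sources used here. Fewer barcodes are in the files than the study states as sequenced.

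Counts were summed per code and library and divided by the group's total to give CPM, with exact Poisson 95% intervals. Ratios carry conditional exact binomial intervals. A gene was read where both groups together held at least 50 UMIs. The limit was 2-fold. With 1 library per condition no test was made. Shares of cells, with Clopper-Pearson intervals, used cells thinned to 3000 UMIs, which left out 1157 culture, 100 tail and 1006 D6 PM cells. Scrublet (Scanpy 1.11.5) marked 137, 9 and 98 cells as doublets, which were kept. Marker and pathway lists and the members were chosen with earlier results of these data known. Named genes were the 10 members, list genes of at least 20 CPM and 2-fold apart, markers, and the 3 genes most like each member. Genes past the limit but under 20 CPM are named only to complete a count, chosen after their values were seen. The 2-fold rule was checked on simulated Poisson counts. These hold no spread between cells or libraries, so the check does not cover that spread. Alternatives were other folds, count minimums, totals and depths, per-cell means and removal of doublets. Python 3.11.15, NumPy 2.4.6 and SciPy 1.17.1 were used.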

Additional observations from a re-analysis of the deposited data

How the results depend on the processing

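Over 8 comparisons, no ratio past 2-fold turned direction under the alternatives, and 410 of 423 ratios stayed within their counting interval. The ratio crossed 1 in 10 cases, for 6 pairs of gene and comparison whose reported ratios lie between 0.955 and 1.02 (*Spry4*, *Etv5* and *Spred1* between culture and tail, *Etv4* and *Dusp6* between cartilage-like and tendon-like cells). Counts of genes past the limit kept within 1.5 times except as follows. With a 3-fold limit, 0 genes passed between cartilage-like and tendon-like cells of the culture (3.96% of all genes), 5 between pluripotent-like and tendon-like cells (30.9%), 5 between tendon-like cells of the culture and somite-like cells of D6 PM (14.2%), and 0 between pluripotent-like cells of D10 and D6 (4.63%). With a 1.5-fold limit, 5 passed between cartilage-like and tendon-like cells of the culture (20.5% of all genes) and 2 of 9 between pluripotent-like cells of D10 and D6, near the 25.7% of all genes. With at least 200 UMIs, 3 passed in cartilage-like cells of the culture against the tail (12.1% of all genes) and 0 between pluripotent-like cells of D10 and D6 (6.54%). These follow from the limit itself or from fewer genes read. Use of cells with an *Scx* UMI alone, an alternative chosen after the data were seen, kept the same genes past the limit in the 5 comparisons it covers, but brought *Fgfr3* in cartilage-like over tendon-like cells of the tail from 25.3-fold to 11.2-fold. Of the other alternatives, ratios moved by over 1.5 times in 2 cases, both between tendon-like cells of the culture and somite-like cells: without doublets *Etv4* went from 12.7-fold to 34.0-fold, and by per-cell means *Etv5* went from 5.35-fold to 2.62-fold. No paired analysis was possible because each condition is 1 library. The 3 libraries limit every comparison: the spread between cultures, embryos or lines is unknown, depth differs between culture and tail, and *Fgfr3* falls below 50 UMIs in 5 comparisons.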

Other observations

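Endothelial-like cells of the tail and the culture had different levels of some of the genes. *Dusp6* stood at 165 CPM (145 to 188) in those of the tail and 72.8 CPM (46.6 to 108) in those of the culture, while *Spry1*, at 67.8 and 57.6 CPM, had intervals that overlap. *Spry4* stood at 34.6 CPM in the tail and 9.10 CPM, from 3 UMIs, in the culture, again with intervals that overlap. *Fgfr1* was the reverse, at 57.2 CPM (45.4 to 71.1) in the tail and 176 CPM (134 to 227) in the culture, and *Etv4* and *Etv5* had no UMI in the 58 cells of the culture. These culture cells had *Cdh5* at 831 CPM and also *Scx* at 640 CPM, against 23.3 CPM of *Scx* in endothelial-like cells of the tail. No comparison between these groups was planned, and none was tested.

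Muscle-like cells of the tail had *Spry1* at 59.1 CPM (49.3 to 70.3) and *Spry2* at 70.6 CPM (59.9 to 82.7), with *Dusp6* at 23.1 CPM and *Etv4* at 1.38 CPM, from 3 UMIs. Skin-like cells had *Fgfr2* at 264 CPM and *Spry1* at 52.8 CPM (42.5 to 64.7), while *Spry4* had no UMI there. Neuron-like cells had *Spred1* at 40.9 CPM and *Fgfr1* at 46.8 CPM, with *Dusp6* at 1.78 CPM, from 3 UMIs. Culture code 8, led by *Gcg* and *Ttr*, had *Fgfr3* at 24.4 CPM (15.8 to 36.0), the highest *Fgfr3* level of the culture, and *Fgfr2* at 75.1 CPM (59.3 to 93.9).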
